A study of Homo sapiens with 36 samples.

Results

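Of 17277 sites that held a peak in at least 1 of 28 CUT&Tag libraries of HUDEP-2 cells, 1921 were partly kept when GATA2 was low. A site was an interval merged from overlapping peaks. A partly kept site had an anti-GATA2 peak in 4 of 4 wild-type libraries and in 1, 2 or 3 of 4 GATA2-low libraries that carried the empty vector. It also had an anti-HA peak in at most 2 of 4 libraries of GATA2-low cells that carried the mutant HA-GATA2(T354M). The sites were thus chosen by the peak calls of these 12 libraries, whose values are given as a description. The other 16 libraries took no part in the choice. Sites in 4 wild-type and 0 GATA2-low libraries (lost sites, n = 1508) and sites in 4 wild-type and 4 GATA2-low libraries (kept sites, n = 986), both under the same limit on T354M anti-HA peaks, served for comparison.

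HUDEP-2 is an immortalized human erythroid progenitor line, and in CUT&Tag an antibody guides a transposase that cuts out the chromatin around its target. GATA2-low cells, with the genotype label GATA2+/-, received a lentivirus with HA-GATA2, with HA-GATA2(T354M) (called T354M here) or with no insert, and wild-type cells received the virus with no insert. All cells were sorted for the GFP that marks infection and had been grown with erythropoietin, stem cell factor, doxycycline and dexamethasone. Anti-GATA2 libraries were made from the 4 cell populations and anti-HA libraries from the 3 GATA2-low ones, giving 7 groups of 4 libraries. In the rescued cells anti-GATA2 reads the tagged protein and the remaining endogenous GATA2 alike, whereas anti-HA reads the tagged protein alone. One GATA2-low anti-GATA2 library, replicate 1, has a wild-type genotype label but a GATA2-low title, and the title was followed. Without that library the rule chose 1644 sites. Whether the GATA2-low cells were 1 clone is not given in the sources used here. Nothing in the labels says that replicates came from separate cultures. The spread behind each p-value is that between libraries and may be technical.

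GATA2 is a zinc finger transcription factor that binds the core string GATA in DNA and works in blood stem cells, early erythroid progenitors and mast cells. As erythroid cells mature, the related factor GATA1 takes over many of the same sites. T354M, a change in the second zinc finger, is known from families with a predisposition to myelodysplastic syndrome and leukaemia. Loss of GATA2 function from 1 allele is the basis of GATA2 deficiency, in which blood and immune cells fail.

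The peak lists held 10395 ± 2274 peaks for HA-GATA2 anti-GATA2, 4830 ± 1528 for T354M anti-GATA2, 2430 ± 842 for GATA2-low cells and 7625 ± 1247 for wild-type cells (SD, n = 4 each). Anti-HA lists held 4248 ± 1758 peaks for HA-GATA2, 595 ± 166 for T354M and 1 to 6 for the empty vector. Read totals are unknown. As a stand-in for depth, the low end of the local background at the summits of each list, in fragments before the caller's scaling, averaged 0.431 in HA-GATA2, 0.479 in T354M, 0.174 in GATA2-low and 0.265 in wild-type anti-GATA2 libraries. A site in 4 wild-type libraries lay in or within 10 kb of 7 of 10 erythroid marker genes, 0 of 5 markers of other blood cells and 0 of 3 markers of unrelated tissues. The erythroid genes were KLF1, ALAS2, GATA1, EPB42, SLC4A1, AHSP and ANK1.

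Summits of partly kept sites lay in 240 of 34789 annotated promoter windows, each window running from 250 bases before to 50 bases after a start in the RefSeq promoter table (GRCh38.p14). The 250 upstream bases are shown for the 6 protein-coding genes whose window also held a GATA string and whose site had an anti-HA peak in every HA-GATA2 library, because there the tagged protein itself was mapped. HEMGN, which has 3 such strings, was added after its values were seen. Capitals mark GATA strings on either strand, meaning GATA with A or T before it and A or G after it, and each sequence runs 5′ to 3′ towards its gene. CD36 (chr7:80645999-80646248, plus strand) encodes a fatty acid receptor of erythroid progenitors and platelets, and RHAG (chr6:49636840-49637089, minus strand) the Rh-associated glycoprotein of the red cell membrane. HK1 (chr10:69315519-69315768, plus strand) encodes the hexokinase of red cell glycolysis, SPINK4 (chr9:33239917-33240166, plus strand) a peptidase inhibitor, STON2 (chr14:81427776-81428025, minus strand) an endocytic adaptor, OSBP (chr11:59615775-59616024, minus strand) an oxysterol-binding protein and HEMGN (chr9:97938173-97938422, minus strand) hemogen, a nuclear protein of blood cells.
CD36: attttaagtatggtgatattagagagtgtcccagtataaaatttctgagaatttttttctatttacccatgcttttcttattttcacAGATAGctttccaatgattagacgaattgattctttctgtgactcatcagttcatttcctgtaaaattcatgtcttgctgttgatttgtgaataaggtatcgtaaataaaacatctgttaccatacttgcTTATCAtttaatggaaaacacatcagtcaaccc
RHAG: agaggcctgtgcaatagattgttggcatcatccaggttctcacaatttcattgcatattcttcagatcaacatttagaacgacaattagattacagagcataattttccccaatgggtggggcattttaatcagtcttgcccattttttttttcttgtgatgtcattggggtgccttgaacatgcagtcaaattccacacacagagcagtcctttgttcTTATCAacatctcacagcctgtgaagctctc
HK1: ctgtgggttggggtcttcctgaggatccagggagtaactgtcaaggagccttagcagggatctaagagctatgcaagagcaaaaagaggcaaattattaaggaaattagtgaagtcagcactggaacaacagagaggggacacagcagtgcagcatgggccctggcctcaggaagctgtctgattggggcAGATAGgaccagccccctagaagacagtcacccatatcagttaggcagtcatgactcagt
SPINK4: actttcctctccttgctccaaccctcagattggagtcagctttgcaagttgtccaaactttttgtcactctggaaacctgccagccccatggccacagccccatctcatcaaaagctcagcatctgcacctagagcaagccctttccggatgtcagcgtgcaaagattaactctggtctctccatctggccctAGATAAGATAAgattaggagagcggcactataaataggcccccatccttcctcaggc
STON2: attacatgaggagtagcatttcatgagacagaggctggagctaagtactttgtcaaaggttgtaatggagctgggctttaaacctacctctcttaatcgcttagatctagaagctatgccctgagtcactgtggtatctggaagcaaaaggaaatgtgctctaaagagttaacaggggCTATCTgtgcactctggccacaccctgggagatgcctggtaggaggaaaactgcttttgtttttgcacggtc
OSBP: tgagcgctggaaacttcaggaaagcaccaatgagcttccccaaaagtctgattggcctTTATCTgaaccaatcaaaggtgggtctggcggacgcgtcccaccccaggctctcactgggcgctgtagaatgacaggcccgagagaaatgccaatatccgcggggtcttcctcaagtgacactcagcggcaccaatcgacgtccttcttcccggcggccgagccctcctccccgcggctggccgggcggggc
HEMGN: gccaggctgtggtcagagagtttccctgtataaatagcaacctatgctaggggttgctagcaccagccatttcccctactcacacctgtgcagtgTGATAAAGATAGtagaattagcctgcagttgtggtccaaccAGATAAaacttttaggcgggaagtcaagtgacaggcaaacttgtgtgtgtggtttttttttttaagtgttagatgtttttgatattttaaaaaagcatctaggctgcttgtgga

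The nearest GATA string lay 0 bp from the strongest summit of the site at OSBP, 12 bp at RHAG, 14 bp at HEMGN, 16 bp at HK1, 61 bp at STON2, 69 bp at SPINK4 and 71 bp at CD36. A GATA string was in the 250 upstream bases of 29.2% of the 240 windows with a partly kept summit. It was in 23.1% of 342 windows with a lost summit, 60.0% of 40 with a kept summit and 22.3% of all 34789 windows. AGATAA alone was in 14.6% of the partly kept windows, 7.89% of lost, 37.5% of kept and 9.20% of all windows. Other strings were searched on both strands too. The E-box string CAGNTG was in 30.8% of partly kept, 32.5% of lost, 35% of kept and 42.5% of all windows. The ETS string TTCCGG was in 22.5%, 22.8%, 22.5% and 14.5%, so neither share was particular to partly kept windows. Of partly kept and of all windows, TGTGGT was in 10.4% and 11%, TGANTCA in 4.58% and 6.55% and CACCC in 56.2% and 54.8%. A match is a description of these bases and names no bound factor.

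At the CD36 promoter the 4 HA-GATA2 anti-GATA2 libraries had peaks of 7.81, 9.61, 10.3 and 10.8 times the local background. T354M had a peak in replicate 3 (5.26) and replicate 4 (6.15), GATA2-low cells in replicate 4 (8.05), and the wild-type libraries had 5.83, 6.84, 10.3 and 12.7. These folds are the authors' values for each peak and describe it within its own list, since the caller scaled libraries differently. With anti-HA the fold at CD36 was 9.55, 18.5, 22.0 and 7.51 in HA-GATA2 cells and 6.14 in T354M replicate 4 alone. The peak at RHAG had a fold of 9.80, 11.9, 14.3 and 15.4 in HA-GATA2 anti-GATA2 libraries and 6.94, 9.48 and 11.2 in T354M replicates 1, 3 and 4. HA-GATA2 anti-HA folds there were 10.01, 10.8, 12.5 and 6.96, and 0 T354M anti-HA libraries had a peak. SPINK4 had the strongest of the printed promoter sites in the anti-HA lists, with folds of 28, 34.4, 40.5 and 18.8 in HA-GATA2 cells. OSBP stood apart. Its anti-GATA2 peak was in each HA-GATA2 library (4.25, 4.21, 4.29 and 3.96) and 0 of 4 T354M libraries, yet anti-HA peaks were called in 2 T354M libraries (6.38 and 6.68).

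The share of the 1921 sites with an anti-GATA2 peak was 83.8%, 94.8%, 96.3% and 95.3% in HA-GATA2 replicates 1 to 4. It was 75.3%, 44.9%, 84.1% and 89.8% in T354M replicates 1 to 4. In the libraries that chose the sites it was 21.9%, 25.4%, 43.5% and 87.0% for GATA2-low cells and 100% for wild-type cells. GATA2-low replicate 4 thus held most of the partly kept peaks, and 695 sites (36.2%) were members through it alone. That library had the longest of the 4 GATA2-low lists, 3648 peaks, with the lowest of their background estimates, 0.153. The members held by replicate 4 alone had an HA-GATA2 anti-GATA2 peak in 88.4% ± 8.52 of cases and an anti-HA peak in 46.2% ± 20.9 (SD, n = 4). The 1226 others had 94.9% ± 4.36 and 56.4% ± 21.2.

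**Figure D1:**
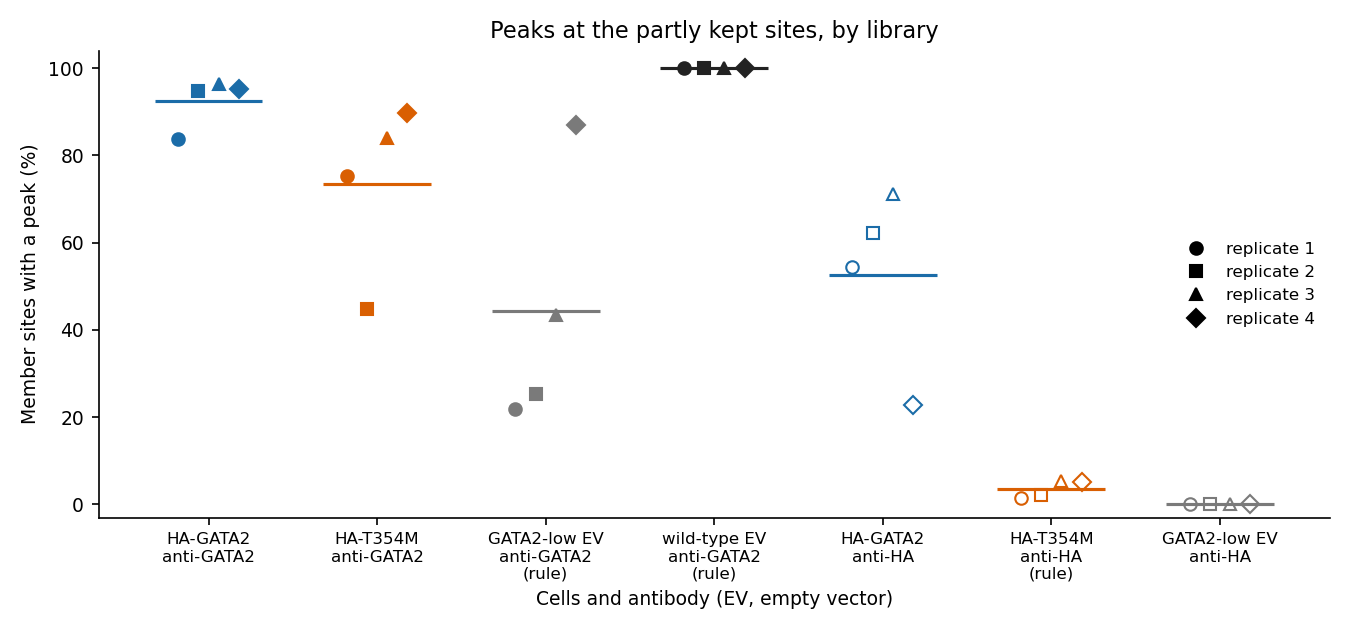
Percent of the 1921 partly kept sites with a peak in each of 28 libraries, by cells and antibody (EV, empty vector); points are libraries and bars are group means. HA-GATA2 libraries reached 83.8% to 96.3% with anti-GATA2, T354M libraries 44.9% to 89.8%, and the groups marked as rule chose the sites.

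The first question was how far the wild-type and the mutant protein filled these sites. HA-GATA2 libraries had a peak at 92.6% ± 5.86 of them and T354M libraries at 73.5% ± 20 (SD, n = 4 each), a difference of 19.1 percentage points. The groups overlapped and the difference did not pass (exact two-sided permutation test, p = 0.0857, adjusted p = 0.0857 over 5 tests). Without T354M replicate 2, the lowest library, it was 9.51 points (exact permutation adjusted p = 0.143). With each of the 8 lists cut to its strongest 2779 peaks, the length of the shortest, the direction turned. HA-GATA2 libraries then had 40.7%, 39.8%, 40.7% and 41.4% and T354M libraries 45.7%, 44.9%, 45.5% and 45.7%, a difference of -4.79 points (exact permutation adjusted p = 0.0357). With fragments thinned to a common background instead, the direction stayed that of the whole lists. The difference was then 20.0026 points and did not pass (exact permutation adjusted p = 0.0571). The order of the proteins at these sites therefore turned when lists were cut to equal length, but not when fragments were thinned.

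Every HA-GATA2 library had a peak at 1583 sites (82.4%, against 38.2% of all sites). Every T354M library had one at 813 (42.3%, against 14.8% of all sites), and all 8 libraries at 785. HA-GATA2 had the peak in more libraries at 973 sites (50.7%), both proteins in the same number at 874 (45.5%) and T354M in more at 74 (3.85%). No share over all sites is given here for the 785 sites or for this split, so they describe the partly kept sites only. Where a peak was called, its rank by -log10 q within its own list was higher in HA-GATA2 cells. The median percentile over the partly kept sites was 59.6, 70.5, 73.1 and 71.4 in HA-GATA2 libraries and 48.6, 37.9, 53.1 and 56.7 in T354M libraries. The 2 groups did not overlap, and their means of 68.6 ± 6.14 and 49.1 ± 8.16 differed by 19.5 (exact permutation p = 0.0286, the smallest this design gives, adjusted p = 0.0476). The lists also differed in length, as given above. In lists of equal length the difference was 3.65 (exact permutation adjusted p = 0.0357). At the 295 sites on promoter windows it was 8.28 (exact permutation adjusted p = 0.238). The call was lost in 10 of 20 fits that left out 1 library, with differences of 15.8 to 22.6.

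All 4 HA-GATA2 but 0 T354M anti-GATA2 libraries had a peak at 33 partly kept sites, 1.73% of the 1911 with a peak in any of the 8. Over all 14531 sites tested the share was 10.2%, so the clear split was rarer at the partly kept sites than over the series. These shares are not on equal terms, since T354M was put into GATA2-low cells. With the empty vector, those cells had an anti-GATA2 peak at each partly kept site by the rule. They had none at 13299 of all 17277 sites. The reverse split was found at 1 site, against 0.0344% of all sites. Fisher's exact test called 0 of these 34 after adjustment over all sites (smallest adjusted p = 0.279). All 34 had an unadjusted p of 0.0286, the smallest that 4 against 4 libraries give, so the test had little room to call a site. The number moved with single libraries: it was 17 without GATA2-low replicate 4, 64 without HA-GATA2 replicate 1, 53 without T354M replicate 3 and 105 without T354M replicate 4. Of the 33 sites, 15 lay inside a gene, their median width was 593 bp, and 18 were in 1 GATA2-low library, 11 in 2 and 4 in 3. An anti-HA peak was in 1 to 3 HA-GATA2 libraries at 27 of them, in 4 at 2 and in 0 at 4.

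The site inside FIS1, a mitochondrial fission gene (chr7:101243820-101244462), showed this split with folds of 11.9, 18.7, 17.8 and 22.5 in HA-GATA2 libraries and no T354M peak. GATA2-low cells had 7.73 there in replicate 4 alone, and wild-type libraries had 12.1, 9.14, 17.1 and 19.4. TET3, which encodes a 5-methylcytosine oxidase, had 19.3, 13.5, 24.5 and 29.0 in HA-GATA2 libraries at chr2:74026064-74026802 and again no T354M peak. These peaks were of middle rank, with a mean percentile of 75.1 for FIS1 and 63.4 for TET3 in the HA-GATA2 lists. The other sites with the highest ranks were 165406 bp from DCBLD2, inside VKORC1L1, ANKRD27, ACOT7 and OSBPL8, 19418 bp from LCP2 (an adaptor of immune receptor signalling), 126587 bp from PIK3R1 (a regulatory subunit of PI3 kinase) and 855402 bp from PCDH7. The 1 site of the reverse split lay 5458 bp from GOLIM4 (chr3:168002849-168003399). T354M replicates 1 to 4 ranked it at percentiles 78.2, 24.1, 65.6 and 46.8. With anti-HA, however, 3 HA-GATA2 libraries had a peak at this site.

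The tagged wild-type protein itself was found at 54.4%, 62.2%, 71.3% and 22.8% of the partly kept sites in HA-GATA2 anti-HA replicates 1 to 4. In the 4 empty-vector anti-HA libraries the share was 0%, and the mean difference was 52.7 points (exact permutation p = 0.0286, the smallest this design gives, adjusted p = 0.0476). The call was lost in 10 of 20 fits that left out 1 library, with differences of 46.5 to 62.6 points and exact permutation adjusted p-values up to 0.0857. The empty-vector lists hold 1 to 6 peaks, so any set of sites with HA-GATA2 peaks would show such a difference. T354M anti-HA libraries had 1.46%, 2.24%, 5.36% and 5.05%, which the limit of 2 libraries helped to set. All 4 HA-GATA2 but 0 empty-vector anti-HA libraries had a peak at 413 partly kept sites, 27.6% of the 1494 tested. Over all 6916 sites tested the share was 25.3%. Both shares count only sites with a peak in any compared library, and among those the partly kept sites were near the series. Counting every site, all 4 HA-GATA2 anti-HA libraries had a peak at 21.5% of the 1921 partly kept and 10.2% of all 17277 sites. The reverse split was found at 0 partly kept sites (0% of all sites). Fisher's exact test called 0 sites after adjustment over all of them (smallest adjusted p = 0.113). The 413 had an unadjusted p of 0.0286, again the smallest that 4 against 4 libraries give. At 427 partly kept sites (22.2%, against 60.0% of all sites) no HA-GATA2 anti-HA library had a peak.

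Among the 10 sites that every HA-GATA2 anti-HA library held and that ranked highest there, several lay outside genes. They included sites 164394 bp before JARID2, a partner of Polycomb complex 2 (chr6:15080729-15082138), 643 bp before TNFSF9, a ligand of the TNF family (chr19:6529574-6531125), 84320 bp before DISP3 (chr1:11394452-11395549) and 12436 bp before PLEK, which encodes the platelet protein pleckstrin (chr2:68352395-68353206). Anti-HA folds at the JARID2 site were 18.9, 20.8, 28.9 and 13.8 in HA-GATA2 cells, and 8.91 and 6.75 in T354M replicates 3 and 4. At the PLEK site they were 28, 35.2, 45.5 and 24.8 in HA-GATA2 cells, with no T354M anti-HA peak. The PLEK site ranked low among wild-type anti-GATA2 peaks, with a mean percentile of 39.3, and at 93.0 among the HA-GATA2 anti-HA peaks. Further sites of the 10 lay 53661 bp from ABRA, 148544 bp and 206696 bp from CIBAR1 and inside DEPTOR (an inhibitor of mTOR), all on chromosome 8. Others lay 871705 bp from GPC5 and at the SPINK4 promoter.

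At 33 partly kept sites (1.72%, against 19.2% of all sites) no HA-GATA2 anti-GATA2 library had a peak, although all 4 wild-type libraries did. T354M had a peak in 0 libraries at 10 of these and in 4 at 1. The strongest in wild-type cells lay inside TNS4, with folds of 27.9, 22.6, 27.5 and 35.4 in wild-type libraries, 14.3 and 10.2 in GATA2-low replicates 3 and 4 and 10.6 and 12.9 in T354M replicates 3 and 4. At a site 19696 bp from CLEC16A and 54322 bp from the start of SOCS1, a suppressor of cytokine signalling, T354M had 12.3, 13.6 and 10.9 in replicates 1, 3 and 4, GATA2-low cells 14.6 and 6.94 in replicates 3 and 4, and wild-type cells 25.4, 26.7, 26.3 and 28.6. Further sites of this kind lay in ARID5B and STON2 and near ALG1L2, ETS2 and FAM90A1. Others lay 57585 bp from PLET1, 140674 bp from RANBP3L and 161638 bp from UACA. With anti-HA, HA-GATA2 cells had a peak in 3 libraries at the FAM90A1 site and in 1 each at TNS4, PLET1, ALG1L2 and ETS2. The sites named by CLEC16A, STON2, RANBP3L, ARID5B and UACA had no such peak.

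The partly kept sites stood between lost and kept sites in each rescue library. The classes were set by peaks in GATA2-low cells, whose endogenous GATA2 anti-GATA2 also reads after rescue. HA-GATA2 anti-GATA2 peaks were at 92.6% ± 5.86 of partly kept, 74.2% ± 10.7 of lost and 99.8% ± 0.406 of kept sites. T354M anti-GATA2 peaks were at 73.5% ± 20, 46.9% ± 19.4 and 96.9% ± 4.00, and HA-GATA2 anti-HA peaks at 52.7% ± 21.1, 33.6% ± 15.2 and 82.2% ± 17.1 (SD, n = 4). Over all sites the 3 groups had 59.5%, 27.5% and 24.3%. The lead of partly kept over lost sites in the same library was 18.4 ± 5.04 points in HA-GATA2 and 26.7 ± 0.942 points in T354M libraries. HA-GATA2 shares at partly kept sites averaged 92.6%, near the limit of 100%, and whether that narrowed their lead was not tested. The ranges of the lead did not overlap, at 13.3 to 25.1 and 25.7 to 27.5 points, and the difference was -8.27 points (exact permutation p = 0.0286, adjusted p = 0.0476). In lists of equal length it was -3.88 points (exact permutation adjusted p = 0.0357). The direction turned at promoter windows, where it was 1.65 points (exact permutation p = 0.714). The call was also lost without 1 library in 10 of 20 cases, with values of -10.5 to -6.57 and exact permutation adjusted p-values up to 0.114, among them the case without GATA2-low replicate 1 (-6.98, adjusted p = 0.0857). Against kept sites the partly kept sites were lower by -7.24 ± 5.46 points in HA-GATA2 and -23.4 ± 16.1 points in T354M libraries, a difference of 16.2 that did not pass (exact permutation adjusted p = 0.0857). It was 8.60 points without T354M replicate 2 and 0.485 points in lists of equal length (exact permutation p = 0.543).

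**Figure D2:**
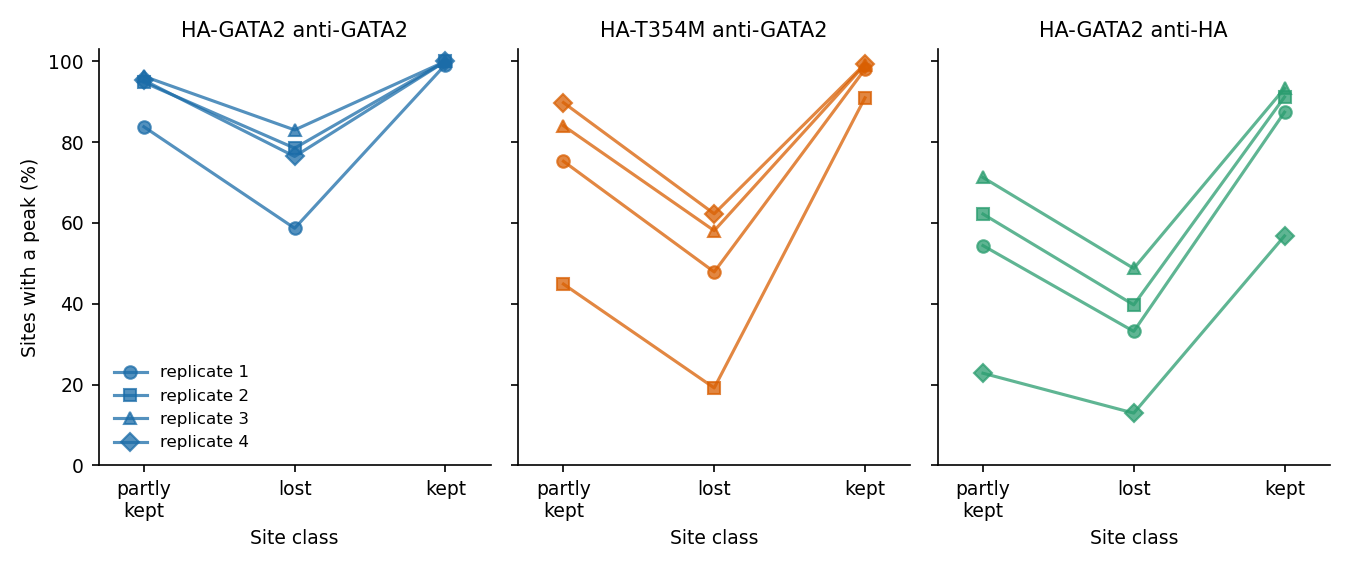
Percent of partly kept, lost and kept sites with a peak in each library of 3 groups that took no part in the choice; each line is 1 library. In each of the 12 libraries partly kept sites lie above lost and below kept sites, with means of 92.6%, 74.2% and 99.8% in HA-GATA2 anti-GATA2 libraries.

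The same order ran within the partly kept sites. HA-GATA2 anti-GATA2 peaks were at 87.4% ± 8.78 of the 894 sites held by 1 GATA2-low library, 96.0% ± 4.39 of the 559 held by 2 and 98.2% ± 2.08 of the 468 held by 3. T354M anti-GATA2 peaks were at 64.9% ± 22.5, 75.7% ± 20.5 and 87.3% ± 14.7, and HA-GATA2 anti-HA peaks at 44.5% ± 20.6, 55.2% ± 23.1 and 65.2% ± 19.8 (SD, n = 4). Sites with a peak in more GATA2-low libraries thus had a peak more often in the rescued cells too. That count is part of the rule, and the rescued cells are GATA2-low cells whose endogenous GATA2 anti-GATA2 also reads. The order with anti-GATA2 is therefore a description. The T354M anti-HA count, also part of the rule, gave a steeper order. HA-GATA2 anti-HA peaks were at 48.5% ± 21.7 of the 1712 sites with no T354M anti-HA peak, 84.0% ± 19.1 of the 147 with 1 and 94.8% ± 10.5 of the 62 with 2.

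Peak strength in wild-type cells moved with these classes. The mean wild-type percentile had a median of 64.8 at partly kept, 43.4 at lost and 87.8 at kept sites. The sites also differed in width, with medians of 663 bp, 562.5 bp and 862.5 bp, against 402 bp over all sites. Within bins of equal wild-type percentile, partly kept sites had a peak more often than lost sites in 4 of 4 libraries in every bin for both anti-GATA2 groups. In the bin of percentile 25 to 50, for example, HA-GATA2 anti-GATA2 peaks were at 83.3% ± 12.1 of 403 partly kept and 73.0% ± 12.7 of 692 lost sites. T354M peaks were at 56.1% ± 25.5 and 43.6% ± 20.5 (SD, n = 4). For anti-HA in HA-GATA2 cells the same order held in 4 of 4 libraries in 3 bins and in 3 of 4 in the bin of 50 to 75.

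**Figure D3:**
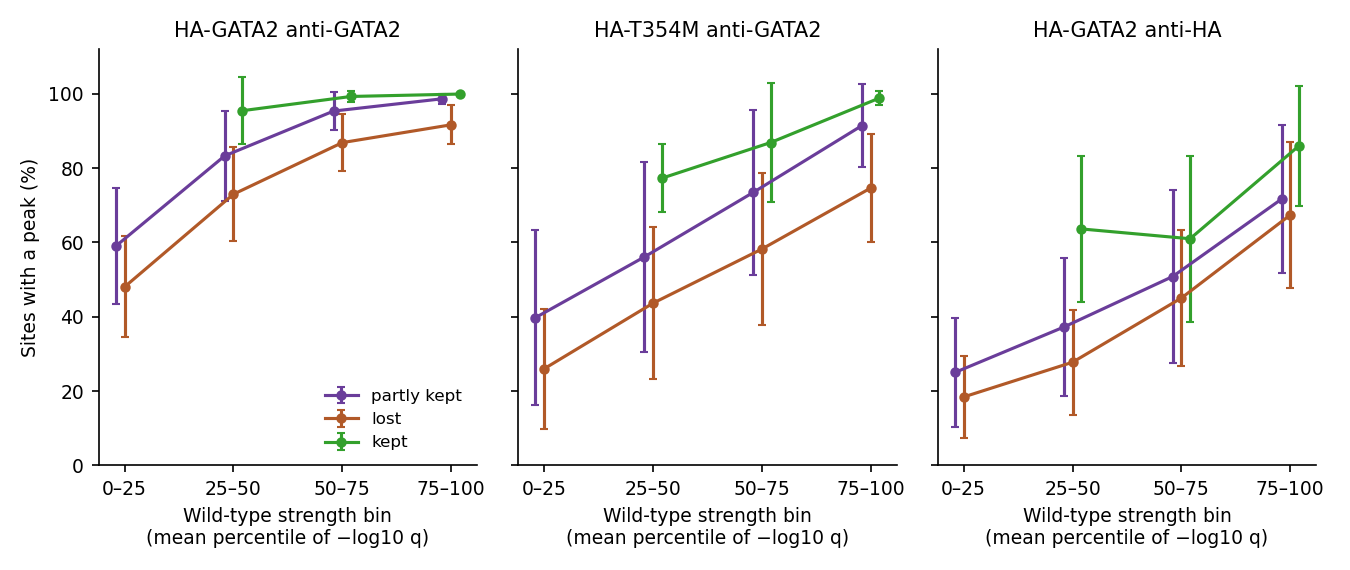
Percent of sites with a peak (mean ± SD over 4 libraries) by bins of the mean wild-type percentile of -log10 q, for partly kept, lost and kept sites in 3 groups. Occupancy climbs with wild-type strength in each panel for partly kept and lost sites, and partly kept sites lie above lost sites in each bin; the kept point at 25 to 50 rests on 11 sites.

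Most partly kept sites lay away from gene starts. Of the 1811 outside chromosome 8, 295 (16.3%) overlapped a promoter window, against 27.3% of lost, 9.14% of kept and 17.2% of all sites. Of all 1921 sites, 53.7% lay inside a gene body, near the 54.7% of all sites, against 49.0% of lost and 54.5% of kept sites. Outside chromosome 8 the median distance to the nearest start was 24667 bp, against 13598.5 bp for lost, 32002.5 bp for kept and 23769 bp for all sites. In the 250 bp around a start, 38.1% of the sites of the 3 classes were partly kept, 56.7% lost and 5.24% kept. In the bin from 5 kb to 20 kb the shares were 48.6%, 27.9% and 23.6%. Another partly kept site lay within 10 kb of 10.9% of the partly kept sites, with no share for other sites given here. A kept site lay within 10 kb of 5.83% of them, against 4.51% of lost sites.

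The partly kept sites were also split by place, without a test. HA-GATA2 anti-HA peaks were at 33.9%, 42.4%, 55.6% and 6.78% of the 295 promoter sites and at 58.2%, 65.1%, 74.1% and 25.5% of the 1516 others, in replicates 1 to 4. The promoter share was the lower one in each of these 4 libraries and in the 4 HA-GATA2 anti-GATA2 libraries. T354M anti-GATA2 libraries were not of 1 direction, with 77.3% at promoters and 74.1% elsewhere in replicate 1 and 24.4% and 48.5% in replicate 2. The means were 34.7% ± 20.6 and 55.7% ± 21.2 with anti-HA, 86.4% ± 8.55 and 93.6% ± 5.46 for HA-GATA2 anti-GATA2 and 66.2% ± 27.9 and 74.5% ± 18.7 for T354M anti-GATA2. Partly kept sites whose promoter summit window held a GATA string (60 sites) had HA-GATA2 anti-HA peaks in 43.8% ± 24.1 and those with a window without one (135 sites, some with windows of both kinds) in 29.8% ± 20.1 (SD, n = 4).

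**Figure D4:**
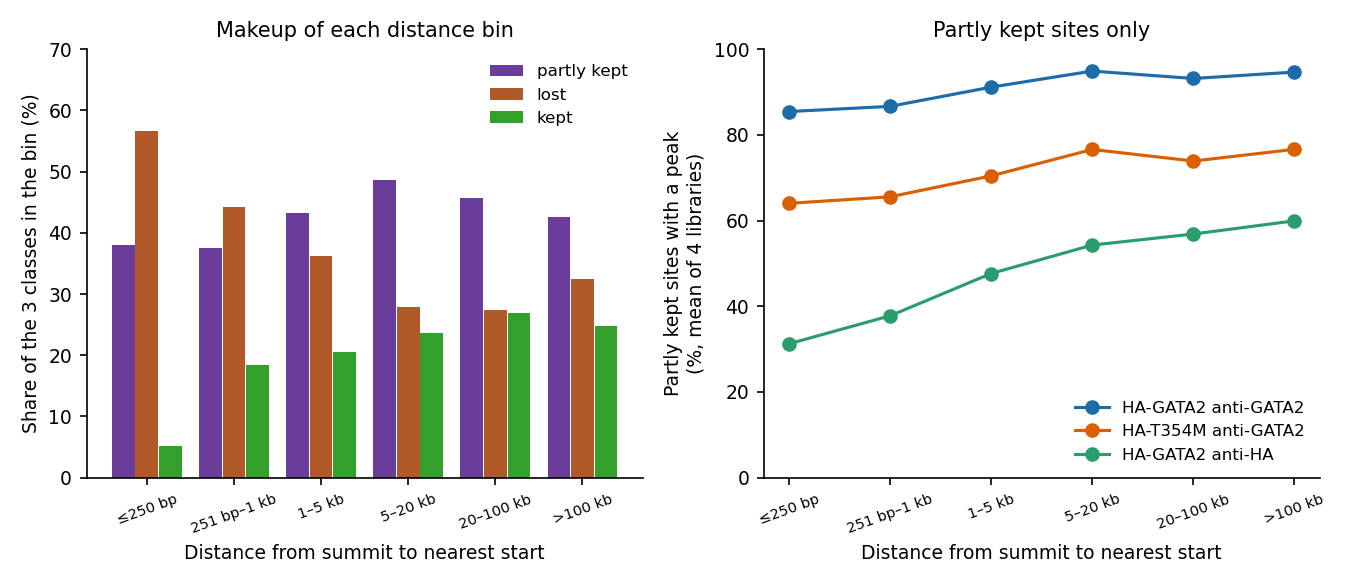
Left, makeup of the 3 site classes by distance from the summit to the nearest annotated start; right, percent of partly kept sites with a peak, as the mean of 4 libraries, in HA-GATA2 anti-GATA2, T354M anti-GATA2 and HA-GATA2 anti-HA libraries. Lost sites fill 56.7% of the bin nearest to starts, and the anti-HA share of partly kept sites is 31.2% there against 59.9% beyond 100000 bp.

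Genes of the red cell were often near a partly kept site. Counting the gene body and 10 kb on either side, 20 of 41 genes of red cell membrane, blood groups and iron (48.8%) had one, against 8.05% of all 19970 protein-coding genes. So did 17 of 43 haematopoietic transcription factor genes (39.5%), 8 of 28 globin and heme genes (28.6%), 8 of 32 cytokine signalling genes (25%) and 7 of 33 autophagy genes (21.2%). Lists of other cells were near or below the share of all genes: 2 of 28 mast cell and basophil genes, 1 of 26 megakaryocyte genes, 1 of 26 neutrophil genes, 0 of 25 lymphocyte genes, 2 of 26 genes of unrelated tissues and 0 of 26 housekeeping genes. These are counts without a test. The red cell shares were not particular to partly kept sites. Of the red cell membrane genes 43.9% had a kept site, against 3.87% of all genes, and 17.1% a lost site, against 7.33%. Of the globin and heme genes 25% had a kept site and 25% a lost site. The lists were chosen with earlier results of these data known, and genes of the first lists also had sites of any kind more often (39 of 41 red cell membrane genes against 42.1% of all genes).

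**Figure D5:**
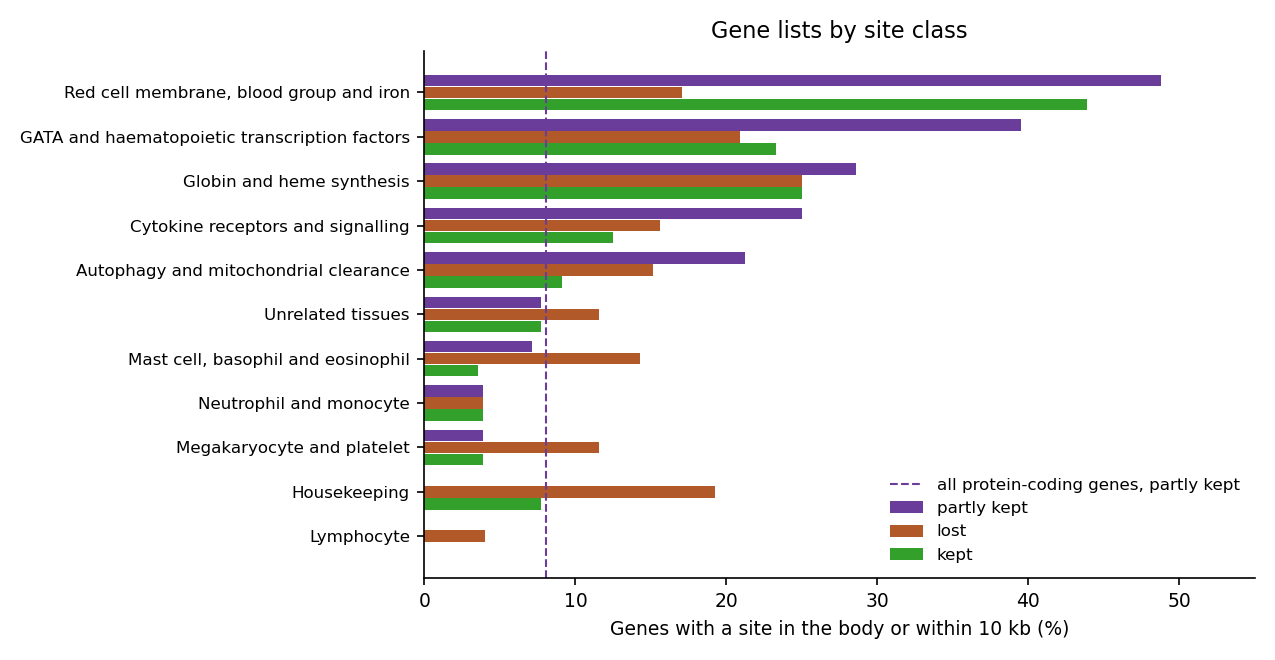
Percent of the genes of 11 lists with a partly kept, lost or kept site in the gene body or within 10 kb; the dashed line is the partly kept share of all protein-coding genes, 8.05%. Red cell membrane genes reach 48.8% for partly kept, 17.1% for lost and 43.9% for kept sites, while housekeeping genes have 0%, 19.2% and 7.69%.

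Among membrane and iron genes, the site inside SPTB, the spectrin beta chain (chr14:64844880-64845587), had folds of 15.1, 20.8, 22.9 and 33.4 in HA-GATA2 and 12.1, 7.50, 14.2 and 12.8 in T354M anti-GATA2 libraries. GATA2-low replicates 2 to 4 had 10.2, 17.5 and 14.3 there, and wild-type libraries 17.4, 10.5, 26.8 and 22.0. The site 1275 bp before SLC40A1, which encodes the iron exporter ferroportin (chr2:189581639-189582404), had 23.9, 26.9, 33.1 and 32.9 in HA-GATA2 and 14.0, 14.0 and 15.6 in T354M replicates 1, 3 and 4. Both were held by 3 GATA2-low and 3 HA-GATA2 anti-HA libraries. EPB41 (protein 4.1) had 3 partly kept sites and TMOD1 (tropomodulin) 2. AQP1, the water channel, had a site with anti-HA folds of 25.6, 21.2, 31.3 and 11.1 in HA-GATA2 cells, and PIEZO1, the mechanosensitive channel, one with 7.69, 8.80 and 8.62 in replicates 1 to 3. The remaining members of the list were RHAG, RHCE, CD44, ICAM4, ERMAP, ANK1, ADD1, ADD2, TMCC2, STOM, KCNN4, CA1, CA2 and FTH1.

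Among globin and heme genes, the site inside UROS, the uroporphyrinogen III synthase gene (chr10:125816376-125817183), had a peak in GATA2-low replicate 4 alone. Its fold was 39.1, 58.8, 48.7 and 47.8 in HA-GATA2, 16.2, 14.9, 21.6 and 27.6 in T354M, 10.9 in that GATA2-low library and 23.7, 27.8, 36.4 and 32.4 in wild-type libraries. Anti-HA folds in HA-GATA2 cells were 20.1, 20.5, 23.2 and 8.68. AHSP, the chaperone of alpha globin, had a site 7138 bp away, and NPRL3, whose introns hold alpha-globin enhancers, had 2 sites. CPOX, a later heme enzyme, had 1, with folds of 22.4, 27.4, 32.2 and 27.7 in HA-GATA2 and 15.3, 12.5, 21.4 and 19.6 in T354M libraries. HBE1, ABCB10, FLVCR1 and BLVRB completed the list.

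Among transcription factor genes, GATA2 itself had 2 partly kept sites. The one at chr3:128482702-128484003, inside the gene, had folds of 14.2, 11.6, 11.5 and 11.3 in HA-GATA2, 7.07, 6.17, 8.28 and 10.7 in T354M, 9.89 and 14.1 in GATA2-low replicates 3 and 4 and 21.0, 25.7, 26.6 and 23.7 in wild-type libraries. Its mean percentile was 46.9 in HA-GATA2 lists and 84.5 in wild-type lists, which differ in length. GATA1 had 2 partly kept sites, RUNX1 2 and FOXO3, a factor of red cell maturation, 2. The GATA1 site at chrX:48800395-48801181 lay 630 bp before HDAC6, its nearest gene. The site near KLF1, the erythroid Krüppel-like factor, lay 153 bp before GCDH and had an anti-HA peak in 1 HA-GATA2 library, at a mean percentile of 0.470. TAL1, LMO2, ZFPM1, ZFPM2, GFI1B, MYB, ERG, ZBTB7A, SOX6, TCF12, MYC and BACH1 had 1 each.

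Of the signalling genes, LYN, a kinase below the erythropoietin receptor, had the site with the highest mean wild-type percentile, 77.3 against 72.3 at JAK1, whose wild-type folds of 14.6, 28.2, 28.7 and 25.3 were above those of LYN in replicates 2 and 3. Folds at the LYN site were 27.4, 34.2, 37.2 and 41.3 in HA-GATA2, 15.6, 13.5, 19.8 and 20.1 in T354M, 7.88, 11.8 and 12.8 in GATA2-low replicates 1, 3 and 4 and 17.8, 16.1, 21.2 and 25.4 in wild-type libraries. JAK1, CISH, PIM1, PTPN6, SH2B3, GAB1 and IGF1R were the others. The CISH site lay inside MAPKAPK3, 182 bp from its start. BNIP3L, a receptor for the removal of mitochondria from red cells, stood among the autophagy genes with ATG4A, ATG4D, ATG12, ATG13, ATG14 and BCL2L13. The ATG12 site lay inside AP3S1, 53 bp from its start, and the ATG13 site inside HARBI1. Outside the blood lists, CDH1 (E-cadherin) had 2 sites, both held by every HA-GATA2 anti-HA library, and COL1A1 had 1. LTF had 2 sites with no anti-HA peak. TPSAB1 and IL13 were the mast cell genes and TUBB1 the megakaryocyte gene. Outside all lists, and singled out after the counts were seen, GSE1 had 7 partly kept sites and AFF1, CCND3 (cyclin D3), FBXO34, SLC25A21, SSBP3 and USP48 had 4 each.

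Sites just outside the rule are given as values. The 37 sites that met it but for an anti-HA peak in 3 T354M libraries had anti-HA peaks in 94.6% ± 9.10 of cases in HA-GATA2 cells, against 94.8% ± 10.5 of the 62 members with 2. The 308 sites with 3 rather than 4 wild-type libraries had HA-GATA2 anti-GATA2 peaks in 76.0% ± 13.9 and T354M peaks in 38.7% ± 22.9 (SD, n = 4).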

How the data were processed

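CUT&Tag peak lists of 28 HUDEP-2 libraries were used, and 8 IgG libraries were not analysed here. The submitters' processing notes name FastQC, cutadapt 3.3, Bowtie2 2.2.5, deepTools 3.5.3, MACS2 2.2.7.1 and hg38. The sources used here do not give the parameters. Each deposited list gives, per peak, the authors' score, fold over local background, -log10 p and -log10 q. Peaks were called per library.

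Peaks on chromosomes 1 to 22 and X (120509 of 120964) were merged where they shared at least 1 bp. A library's share of sites with a peak, or its median percentile by -log10 q within its own list (0 weakest, 100 strongest), was 1 value per library. Groups of 4 were compared by exact two-sided permutation over 70 splits, with Benjamini-Hochberg adjustment over 5 tests and a threshold of 0.05. Single sites were compared by Fisher's exact test, with adjustment over every site that any compared library held. The scripts were tested on simulated data. Python 3.11.15, numpy 2.4.6, pandas 2.3.3 and scipy 1.17.1 were used.

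Gene places and upstream sequences came from RefSeq (GRCh38.p14), which has no promoter entries for chromosome 8 here. Read totals are unknown. Background fragments were solved from the deposited fold and -log10 p. Named are up to 10 sites each with the highest anti-HA ranks, the largest gap between HA-GATA2 and T354M and no HA-GATA2 anti-GATA2 peak, and up to 5 per gene list by wild-type rank. The sites, lists and tests were chosen with earlier results of these data known.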

Additional observations from a re-analysis of the deposited data

Results flagged for a closer look

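HA-GATA2 anti-GATA2 replicate 1 had a peak at 83.8% of the partly kept sites and lay apart from the other 3 libraries of its group, with a gap of 0.879 of the group's range, above Dixon's 95% critical value. Chance flags about 1 in 20 such groups. Its list was the shortest of the group, 7064 peaks.

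The lead of partly kept over lost sites differed between HA-GATA2 and T354M libraries by -8.27 percentage points in a test of the difference itself (exact permutation p = 0.0286, adjusted p = 0.0476). It was -3.88 points in lists of equal length, and the call was lost in 10 of 20 fits that left out 1 library. HA-GATA2 shares at partly kept sites averaged 92.6%, near the limit of 100%, and whether that narrowed their lead was not tested.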

How the results depend on the processing

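With lists of equal length the difference in share between HA-GATA2 and T354M turned to -4.79 points, the lead over lost sites was -3.88 and the gap to kept sites 0.485, and at promoter windows the lead over lost sites turned to 1.65 points; the cause was not tested. Fragments were also thinned to a common background, with a limit on -log10 p because q could not be recomputed. The differences were then 20.0026 for the share, -7.78 for the lead over lost sites and 19.7 for the percentile (exact permutation adjusted p = 0.0571 each). With the members limited to 0 T354M anti-HA libraries, the anti-HA share difference was 48.5, the lead over lost sites -7.92 and the percentile difference 20.9 (exact permutation adjusted p = 0.0571 each). At promoter windows, a setting chosen after seeing the data, the anti-HA difference was 34.7 and the percentile difference 8.28 without passing, and 2 sites split 4 against 0. Without the members held by GATA2-low replicate 4 alone, also chosen after seeing the data, 1226 members and 18 such sites were left. Leaving out 1 library gave 1218 to 2071 members, 17 to 105 such sites, and differences of 9.51 to 24.5 (share), 46.5 to 62.6 (anti-HA share), -10.5 to -6.57 (lead over lost), 8.60 to 20.8 (against kept) and 15.8 to 22.6 (percentile). The anti-HA share, the lead over lost sites and the percentile each lost their call in 10 of 20 such cases. For the anti-HA share and the percentile, some cases lost it only through the adjustment over 5 tests. Without wild-type replicate 2, for example, these differences were 50.5 and 19.1 (exact permutation p = 0.0286, adjusted p = 0.0714 each). The other losses of the anti-HA share came on leaving out 1 empty-vector anti-HA library. The difference stayed at 52.7 points there (exact permutation p = 0.0571, adjusted p = 0.0857 each). The cause of the remaining losses, for the lead over lost sites and the percentile, was not tested. Deviations of same-numbered HA-GATA2 and T354M anti-GATA2 libraries had correlations of -0.0461 to 0.0138, and those of other pairs -0.159 to 0.103. These values cannot settle whether equal numbers mark a shared culture or batch, which the labels do not give. No such correlation exists for anti-HA, since the empty-vector libraries had a peak at 0 members. With the replicate block the values were 52.7, -8.27 and 19.5 for these 3 results, each at the smallest p that 16 sign flips allow, which cannot pass. A -log10 q of at least 15, trimmed peaks, no limit on T354M anti-HA peaks and sites off promoters kept each direction and side of the threshold.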
